A study of Mus musculus with 8 samples.

Results

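The positions of the transcription factor PDX1 and of the histone mark H3K27ac were compared across the genome of Beta-TC6 cells, an established line from a mouse insulinoma, a tumour of insulin-secreting beta cells. The members were all 34883 PDX1 peaks and all 29735 H3K27ac intervals of the deposited lists, together 64618 of the 137716 regions in the 6 lists of the series. A PDX1 peak was counted in an interval when they shared at least 1 bp. Chromatin immunoprecipitation with sequencing (ChIP-seq) was carried out with 1 library for each of 6 targets and 2 pooled inputs, and the other 4 targets were BMAL1, CLOCK, H3K4me2 and H2A.Z. All cells were untreated, grown to confluence and fixed with 2 mM DSG, a protein crosslinker, for 30 minutes and with 1% formaldehyde for 10 minutes. Both lists were called against the same pooled input, from 19568242 tags for PDX1 and 13430083 for H3K27ac. Neither target had a replicate, so no p-value was computed. The 95% intervals given below (Wilson for shares, exact Poisson for densities, normal approximation for weighted shares, differences and ratios) cover counting error only, since peaks and intervals are not replicates.

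PDX1 is a homeodomain transcription factor that is needed to form the pancreas and to maintain mature beta cells, where it binds regulatory DNA of genes such as insulin and islet amyloid polypeptide. Homeodomains of its class recognise short sequences with a TAAT core. Acetylation of lysine 27 on histone H3 marks the nucleosomes of active promoters and enhancers, and wide stretches of it lie at genes that define a cell type. As a check of the label, H3K27ac lay within 1 kb of a gene end at 8 of the 9 beta-cell markers, against 40.0% of 21887 protein-coding genes. The exception was Ucn3. Gcg was the acetylated gene among 4 alpha-cell markers, and 0 of 2 delta-cell, 0 of 1 PP-cell, 0 of 6 acinar and 0 of 4 duct markers carried the mark there.

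Where both lists meet at a promoter, the DNA itself can be shown. Among the genes of the lists described further on, 4 promoter windows lay in an acetylated interval and were touched by a PDX1 peak. The windows run from 250 bp before to 50 bp after a RefSeq transcript start (build GRCm38.p6, with the coordinates of mm10), 5′ to 3′ on the strand of the gene, and capitals mark TAAT or its reverse complement ATTA. They are at chr6:142298175-142298474 (plus strand) for Iapp, islet amyloid polypeptide, and at chr2:69219699-69219998 (plus strand) for an internal start of G6pc2, the islet glucose-6-phosphatase. Another is at chr2:181766779-181767078 (plus strand) for an internal start of Myt1, a zinc-finger factor of endocrine cells. The last is at chr11:75925842-75926141 (minus strand) for an internal start of Rph3al, an effector of Rab proteins in exocytosis.
Iapp: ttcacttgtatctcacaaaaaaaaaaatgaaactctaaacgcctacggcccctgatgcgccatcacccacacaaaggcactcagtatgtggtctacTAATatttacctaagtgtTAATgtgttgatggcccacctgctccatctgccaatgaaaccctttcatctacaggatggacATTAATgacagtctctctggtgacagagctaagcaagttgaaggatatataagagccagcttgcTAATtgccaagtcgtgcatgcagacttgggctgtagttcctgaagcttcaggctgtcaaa
G6pc2: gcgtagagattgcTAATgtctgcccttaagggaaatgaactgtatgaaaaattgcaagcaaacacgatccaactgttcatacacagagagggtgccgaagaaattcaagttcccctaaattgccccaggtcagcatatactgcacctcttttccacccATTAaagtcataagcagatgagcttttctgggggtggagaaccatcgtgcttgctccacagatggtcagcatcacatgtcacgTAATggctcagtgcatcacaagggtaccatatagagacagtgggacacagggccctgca
Myt1: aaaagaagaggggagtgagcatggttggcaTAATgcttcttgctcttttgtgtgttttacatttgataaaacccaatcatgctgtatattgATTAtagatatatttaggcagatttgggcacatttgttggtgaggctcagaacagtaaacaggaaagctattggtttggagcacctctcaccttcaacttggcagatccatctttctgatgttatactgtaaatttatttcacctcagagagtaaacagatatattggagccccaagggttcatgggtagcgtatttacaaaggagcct
Rph3al: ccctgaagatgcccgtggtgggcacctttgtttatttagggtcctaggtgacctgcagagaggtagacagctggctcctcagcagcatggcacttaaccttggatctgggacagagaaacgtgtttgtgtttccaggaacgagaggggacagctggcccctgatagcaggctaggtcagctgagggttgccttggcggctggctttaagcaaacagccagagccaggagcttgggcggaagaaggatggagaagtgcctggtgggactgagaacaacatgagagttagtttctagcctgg

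The Iapp window holds 5 TAAT cores, 2 of them overlapping, and its PDX1 peak has a score of 94 with the centre 110 bp upstream of the start. The score is the peak caller's own measure of the height of a peak and was used within the PDX1 list only. All 5 lie within the peak. The G6pc2 window holds 3 cores, of which 2 lie within its peak of score 53, centred 174 bp upstream. The Myt1 window holds 2, and 0 of them lie within its peak of score 54, centred 86 bp downstream and reaching beyond the window. The Rph3al window holds 0, and its peak has a score of 19 and is centred 185 bp upstream. Motif content was also counted over all 32851 promoter windows, of which 9298 lay in H3K27ac, 265 met a PDX1 peak and 177 did both. On either strand, TAAT occurred in 79.7% (95% interval 73.1 to 84.9) of the windows with both and in 39.2% (38.2 to 40.2) of acetylated windows without PDX1, beside 58.0% of all windows. The longer TAATTA, which contains TAAT, occurred in 22.0% (16.6 to 28.7) and 2.17% (1.89 to 2.49) of these sets, beside 5.29% of all windows. CTAATG, which also contains TAAT, occurred in 14.7% (10.2 to 20.7) and 4.12% (3.73 to 4.55), beside 7.36% of all windows. Base composition moved with these shares. The median GC content was 51.3% with both, 62.3% for acetylated windows without PDX1 and 42.5% for the 88 windows with PDX1 but no H3K27ac, of which 93.2% held TAAT. The part of base composition in the motif shares was not tested.

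PDX1 was concentrated in acetylated chromatin, yet most of its peaks lay elsewhere. H3K27ac covered 45.4 Mb, 1.77% of the 2560 Mb spanned by the lists, and 7367 PDX1 peaks (21.1%) touched it. This came to 162 peaks per Mb of acetylated sequence and 10.9 per Mb of the rest, a ratio of 14.8. Of the intervals, 6954 (23.4%, 22.9 to 23.9) held PDX1. Almost all of these held a lone peak: 6561 had 1 peak, 377 had 2, 13 had 3, 2 had 4 and 1 had 5, so 5.65% (5.13 to 6.22) of the occupied intervals had 2 or more.

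Intervals with more PDX1 peaks were wider and carried more H3K27ac. The median width was 988 bp for intervals without PDX1, 1688 bp with 1 peak, 3248 bp with 2 and 10132 bp with 3 or more. Levels are given as the normalized tag count, the tags in a region scaled to a library of 10000000 tags. The H3K27ac level had medians of 39.5, 80.4, 266.6 and 1100.9 in the same order, and per kb of interval the medians were 37.8, 47.0, 75.7 and 106. The summed PDX1 level had a median of 12.8 with 1 peak, 30.2 with 2 and 49.6 with 3 or more. Neighbouring PDX1 centres within an interval were 445 to 11336 bp apart, with a median of 1113 bp over 413 pairs, where the peak caller had been set to a minimum distance of 470 bp. In these shared intervals the strongest peak had a median level of 17.9 and the weakest one of 12.3, close to the 12.8 of lone peaks.

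Distance from genes split the acetylated intervals into 2 sets that PDX1 occupied very unequally. Intervals were called gene-end intervals when they lay within 1 kb of either end of a protein-coding gene, since the gene table gives no strand, and distal otherwise. PDX1 was present in 28.8% (28.2 to 29.4) of 21782 distal intervals and in 8.53% (7.93 to 9.16) of 7953 gene-end intervals. Distal intervals held 90.1% of the PDX1 peaks found in H3K27ac. The relations to width, tag density and position are therefore also given for the 2 sets apart, while distances and gaps are given over all intervals.

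The share of intervals with PDX1 rose with interval width in both sets, while the number of peaks per length moved in opposite directions. Among distal intervals, 15.1% of those under 1 kb held PDX1, then 35.2% at 1 to 2 kb, 49.8% at 2 to 5 kb, 68.8% at 5 to 10 kb and 91.4% (77.6 to 97.0, 32 of 35) at 10 kb or more. Among gene-end intervals the shares in the same order were 2.81%, 5.93%, 14.5%, 38.5% and 70.2% (56.0 to 81.3, 33 of 47). A wide interval offers more sequence, so peak centres were also counted per 10 kb. In distal intervals this density was 1.96 (1.85 to 2.07) under 1 kb and highest at 1 to 2 kb, with 2.40 (2.30 to 2.51). It then declined to 1.89 (1.82 to 1.97), 1.32 (1.19 to 1.47) and 1.09 (0.815 to 1.43) in the widest class. In gene-end intervals it increased with width, from 0.298 (0.219 to 0.396) under 1 kb through 0.365, 0.528 and 0.649 to 0.866 (0.654 to 1.12). The sets were thus furthest apart at 1 to 2 kb, and their counting intervals overlapped at 10 kb or more.

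**Figure D1:**
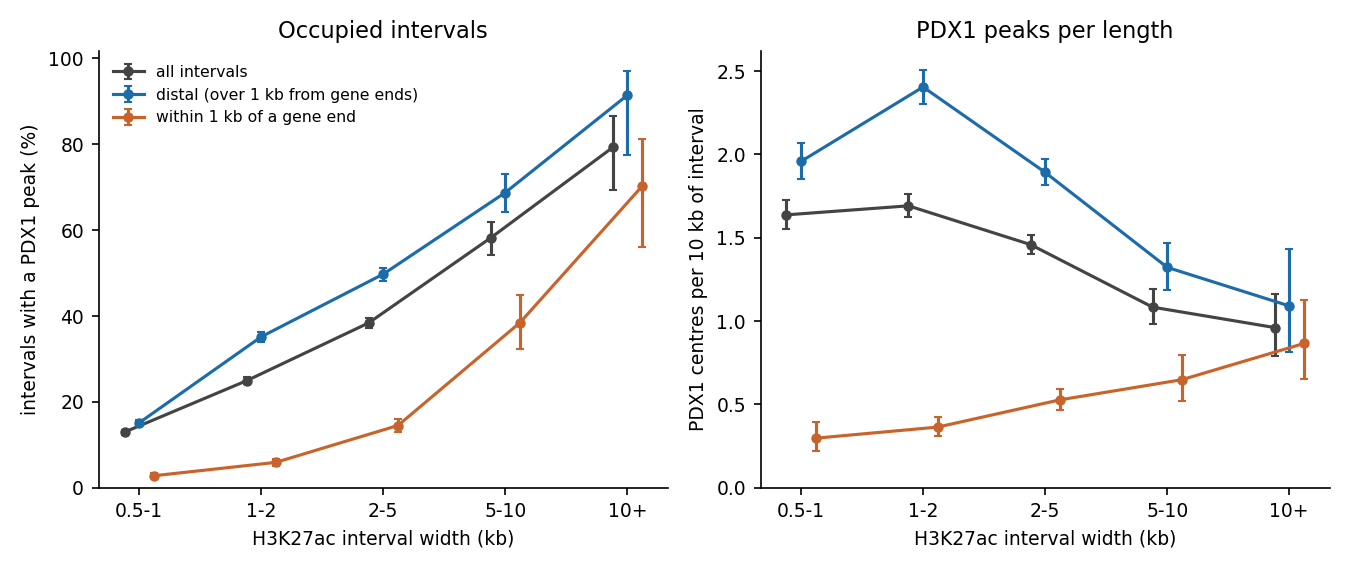
Share of H3K27ac intervals that hold a PDX1 peak (left, percent) and PDX1 peak centres per 10 kb of interval (right) against interval width, for all, distal and gene-end intervals, with 95% counting intervals as bars. Occupancy rises with width in every set, while the density declines from 2.40 to 1.09 in distal intervals and rises from 0.298 to 0.866 at gene ends.

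Lone peaks in the widest intervals had higher levels than those in the shortest, although the rise was not even. In distal intervals with a lone peak, the median PDX1 level was 10.7 under 1 kb, 12.3 at 1 to 2 kb, 15.3 at 2 to 5 kb, 17.4 at 5 to 10 kb and 14.8 at 10 kb or more (17 intervals). At gene ends the medians in the same order were 10.2, 9.20, 11.8, 13.8 and 16.9. Across the distal intervals Spearman's rho of the number of PDX1 peaks was 0.36 with width, 0.34 with the H3K27ac level and 0.28 with the level per kb (n = 21782). At gene ends the same values were 0.23, 0.18 and 0.07 (n = 7953). In the 6276 occupied distal intervals the summed PDX1 level had a rho of 0.35 with the H3K27ac level per kb. These values are descriptions across regions of the same libraries, which share the input and the peak caller's thresholds.

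Intervals with the highest total H3K27ac were occupied most often, and they were also the widest. Over quintiles of rising H3K27ac level, PDX1 was present in 9.67%, 19.5%, 25.7%, 26.8% and 35.2% of all intervals and in 10.0%, 21.9%, 33.6%, 40.8% and 53.0% of distal ones. The median width grew from 500 to 2806 bp over the same quintiles, and the share of gene-end intervals from 6.24% to 46.5%. Per length the order differed. Peaks per 10 kb, by at least 1 bp of overlap, were 1.88, 2.66, 2.13, 1.55 and 1.20 in all intervals. In distal ones they were 1.94, 2.93, 2.59, 2.14 and 1.67, so the highest quintile had the lowest density in both.

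Within width classes the direction of the relation depended on whether gene-end intervals were counted. Quintiles of H3K27ac level per kb were formed inside each width class and occupancy was weighted to the mix of widths. Over all intervals it was 24.5%, 26.9%, 26.7%, 23.4% and 15.5% from the lowest to the highest quintile, a difference of -9.06 percentage points (-10.4 to -7.72) between the ends. Over distal intervals alone it was 23.6%, 27.8%, 30.3%, 32.4% and 30.1%, a difference of 6.43 points (4.68 to 8.18) in the opposite direction. The share of gene-end intervals grew with the level per kb, for example from 5.80% to 75.8% across the quintiles of 1 to 2 kb intervals. Among gene-end intervals occupancy was 11.3%, 8.77%, 7.06%, 9.09% and 6.45% from the lowest to the highest quintile. The highest was below the lowest in the width classes under 5 kb. At 5 to 10 kb the order was the opposite (31.1% and 43.2%), with overlapping counting intervals, and at 10 kb or more both were 70.0%. Input tags per kb also grew over the quintiles, under 1 kb from 4.04 to 22.9 at gene ends and from 2.78 to 10.8 in distal intervals. The part of the input was not tested.

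**Figure D2:**
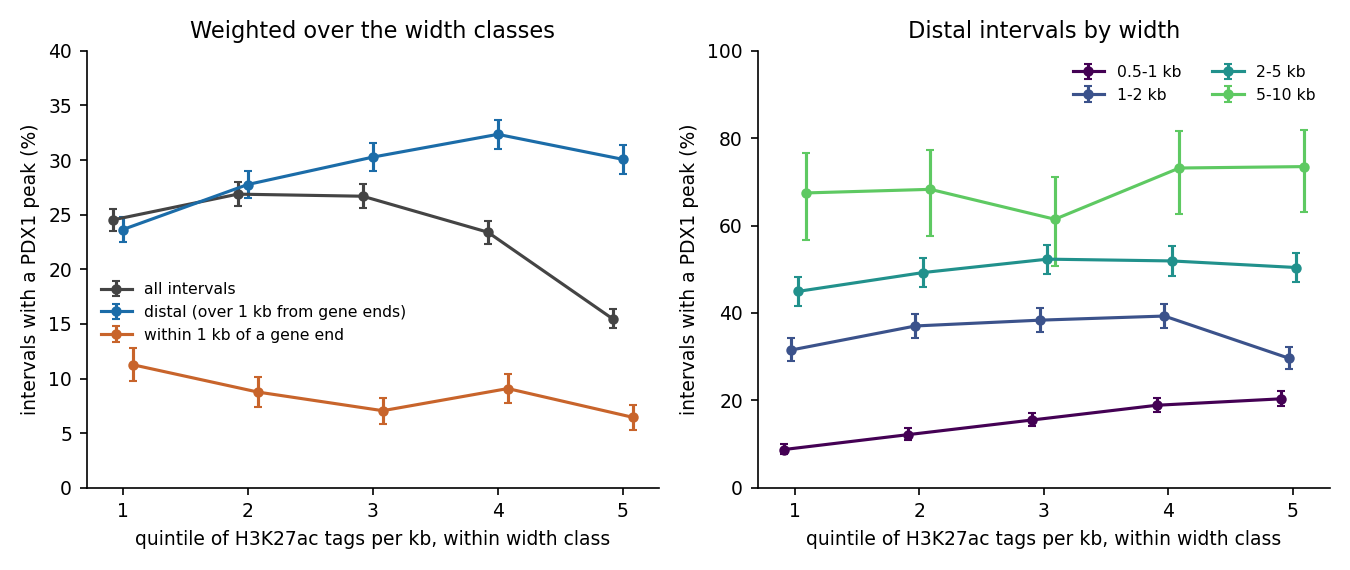
Share of H3K27ac intervals with a PDX1 peak (percent) by quintile of H3K27ac normalized tag count per kb, weighted over width classes for all, distal and gene-end intervals (left) and for distal intervals in 4 width classes (right), with 95% counting intervals as bars. The line for all intervals ends at 15.5% while that for distal intervals ends at 30.1%.

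The 4 width classes of distal intervals differed in shape. Under 1 kb, occupancy rose at each step, from 8.75% (7.63 to 10.0) to 20.4% (18.7 to 22.1). At 1 to 2 kb it was 31.5% (29.0 to 34.2) in the lowest quintile, reached 39.3% (36.6 to 42.1) in the quintile below the highest and was 29.7% (27.2 to 32.3) in the highest, so its ends differed by less than the counting error. At 2 to 5 kb it went from 45.0% (41.7 to 48.3) to 50.4% (47.1 to 53.7), with overlapping counting intervals. At 5 to 10 kb the ends were 67.5% and 73.5%, again within counting error. The steepest relation to tag density was thus that of the shortest intervals.

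Inside distal intervals of 1 to 5 kb PDX1 lay in the middle. Over all intervals, 5021 of 6890 centres (72.9%, 71.8 to 73.9) fell in the central 50% of the interval. By width, the share in distal intervals was 47.2% (44.5 to 49.9) under 1 kb, 81.2% (79.5 to 82.7) at 1 to 2 kb, 84.2% (82.7 to 85.6) at 2 to 5 kb, 68.2% (63.1 to 72.9) at 5 to 10 kb and 55.8% (42.3 to 68.4) at 10 kb or more. The shortest class was therefore not central, and the widest could not be told from an even spread at this number of peaks. At gene ends the central share was between 50.0% and 63.4% in every class, and at 1 to 5 kb it was below that of distal intervals. In distal intervals of 1 to 2 kb, the 10% of the width on either side of the midpoint held 24.2% and 22.4% of the centres, and the outermost 10% at each end held 3.20% and 2.42%. Over all widths the median level was 13.8 for central peaks and 11.8 for peaks in the outer parts. In distal intervals it was 15.8 and 12.3 at 2 to 5 kb, but under 1 kb the order was the opposite, with 9.71 for central and 10.7 for outer peaks.

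**Figure D3:**
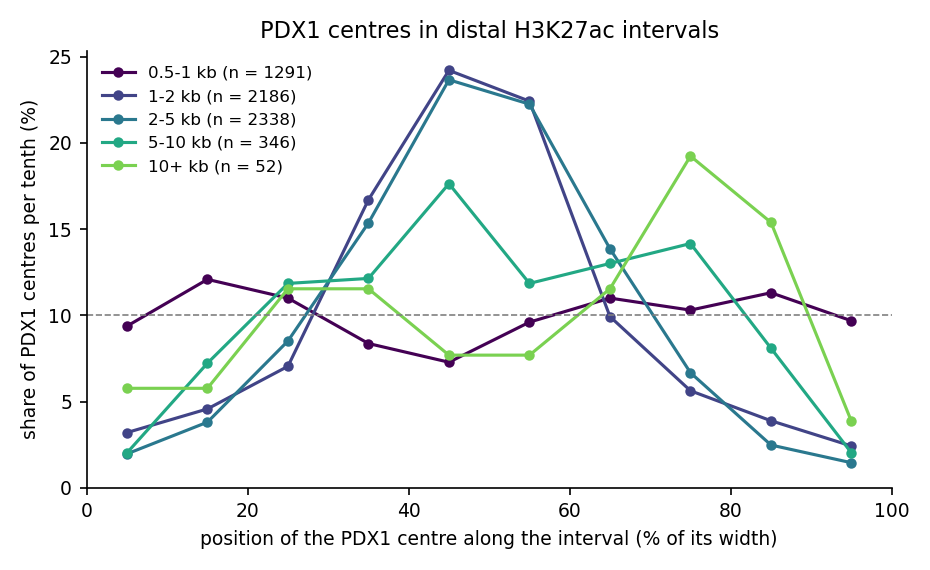
Share of PDX1 peak centres (percent) in each 10% of the interval's width, from its lower to its upper genome coordinate, for distal H3K27ac intervals in 5 width classes, with the dashed line at an even spread. Intervals of 1 to 2 kb and 2 to 5 kb peak in the middle, while those under 1 kb lie close to the dashed line.

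Flanking PDX1 peaks were most numerous, relative to those inside, at the shortest intervals. Within 250 bp of an edge lay 21.8% of the centres inside intervals and 32.7% of the bases, and for intervals of 2 to 5 kb these values were 3.82% and 17.6%. A further 477 peaks, 6.47% of those counted in intervals, reached in from outside with the centre up to 117 bp beyond the edge. Intervals under 1 kb had 661 centres within 250 bp outside their edges, beside 1338 inside. Those of 1 to 2 kb had 122 outside beside 2364 inside, and those of 2 to 5 kb had 55 beside 2641. The ratio of inside to flanking centres thus went from 2.02 to 19.4 to 48.0.

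Profiles across the edge, with 8 bins per kb, show the same. In distal intervals under 1 kb the density of centres was 229, 220, 192 and 189 per Mb from the deepest bin to the last one inside. It was 140, 91.1, 55.0, 34.1 and 17.6 per Mb in the bins that follow outside. The density thus declined more steeply from the edge outward than inside it, over several bins. In distal intervals of 1 to 2 kb it declined from 632 per Mb in the deepest bin to 72.6 in the last bin inside, and then to 36.3 and 22.0 outside. In those of 2 to 5 kb it was 331 per Mb at 875 to 1000 bp inside, 29.7 in the last bin and 13.0 in the next one outside. In these wider intervals most of the decline in PDX1 density thus lay inside the edge.

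**Figure D4:**
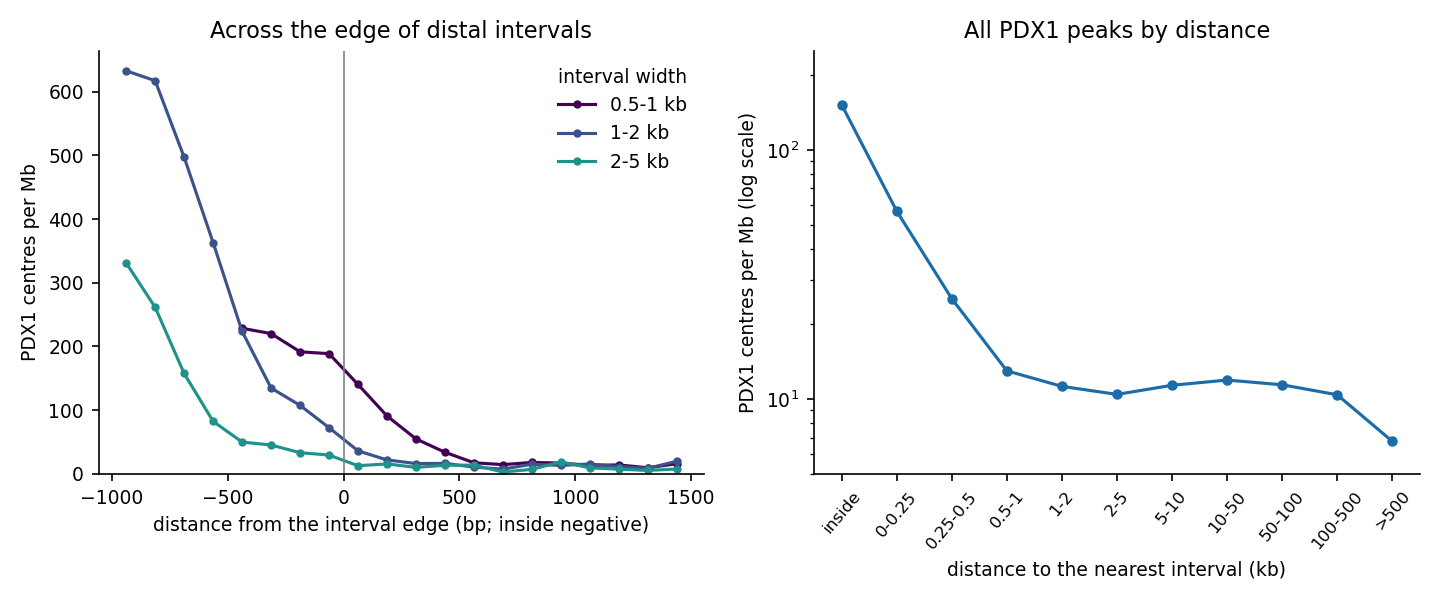
PDX1 peak centres per Mb against distance from the edge of distal H3K27ac intervals in 3 width classes (left, inside negative, 8 bins per kb), and for all PDX1 peaks by distance to the nearest interval (right, log scale). The short intervals show a shoulder that runs beyond the edge, and beyond 500 bp the density on the right stays between 6.77 and 13.0 per Mb.

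Away from the intervals the density of PDX1 fell within 1 kb and then stayed level out to 500 kb. It was 152 centres per Mb inside, 56.8 at up to 250 bp, 25.3 at 250 to 500 bp and 13.0 at 500 bp to 1 kb. It was then between 10.4 and 11.9 in each class from 1 to 500 kb, and 6.77 beyond 500 kb. These densities count every centre outside an interval, among them the 477 whose peaks reach into one. The ratio of the density within 1 kb to that beyond 100 kb was 2.90 (2.75 to 3.06), and 2.02 when those 477 were left out. The 27516 PDX1 peaks that touched no interval had their nearest interval at a median of 48.4 kb, with quartiles of 15.0 and 143 kb and a maximum of 3684 kb. Only 1093 of them (3.97%) lay within 1 kb of an interval, and 9067 (33.0%) lay more than 100 kb away.

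Gaps between closely spaced intervals, where acetylation dips for a short stretch, were mostly without PDX1. Of 1264 gaps of 500 bp to under 1 kb, 34 (2.69%, 1.93 to 3.74) held a centre, at 0.370 per 10 kb. This was above the 0.111 per 10 kb of gaps of 10 kb or more and below every width class of distal interval. It was close to the gene-end intervals of 1 to 2 kb, with 0.365 (0.313 to 0.422), and above the 0.298 of those under 1 kb. The wider gene-end classes were higher, from 0.528 to 0.866. PDX1 touched 2.81% (2.21 to 3.57) of gene-end intervals under 1 kb, so so low a share was not particular to the gaps. Of the 1570 centres within 1 kb of an interval, the 477 included, 45 had an interval within 1 kb on both sides and 1525 on 1 side.

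PDX1 peaks in H3K27ac were taller but had a lower fold over input. The median score was 26 (quartiles 19 and 40) inside and 18 (15 and 25) outside, and the median levels were 12.8 and 8.69. The fold over input, as deposited, had medians of 10.5 and 12.3. Input tags moved with this, with a median of 2 per peak inside and 1 outside, and their part was not tested. The focus ratio, a fraction deposited for each peak, had medians of 0.75 inside and 0.80 outside.

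Height and H3K4me2 both declined with distance from acetylation. The median PDX1 level was 12.8 with the centre inside, 12.3 within 250 bp, 10.2 at 250 to 500 bp, between 8.69 and 9.71 from 500 bp to 500 kb and 8.18 beyond. The share of peaks that also touched H3K4me2, a mark of both promoters and enhancers, was 71.0% inside, 53.0% within 250 bp, 21.2% at 1 to 2 kb, 11.5% at 10 to 50 kb and 3.09% beyond 500 kb.

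The tallest peaks of all were not the most acetylated. The share in H3K27ac was 30.0% (10.8 to 60.3) of the 10 highest scores and 33.3% (24.5 to 43.6) of ranks 11 to 100. It was 48.0% (43.1 to 52.9) of ranks 101 to 500 and 50.0% (45.6 to 54.4) of ranks 501 to 1000. It then declined to 41.8% for ranks after 2000 up to 5000, 20.9% for ranks after 10000 up to 20000 and 9.94% (9.47 to 10.4) below. Chromosome 5 held 6 of the 10 highest peaks. Without it, 2 of the 10 highest were in H3K27ac, and the next 3 shares were 34.4%, 47.5% and 50.2%.

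**Figure D5:**
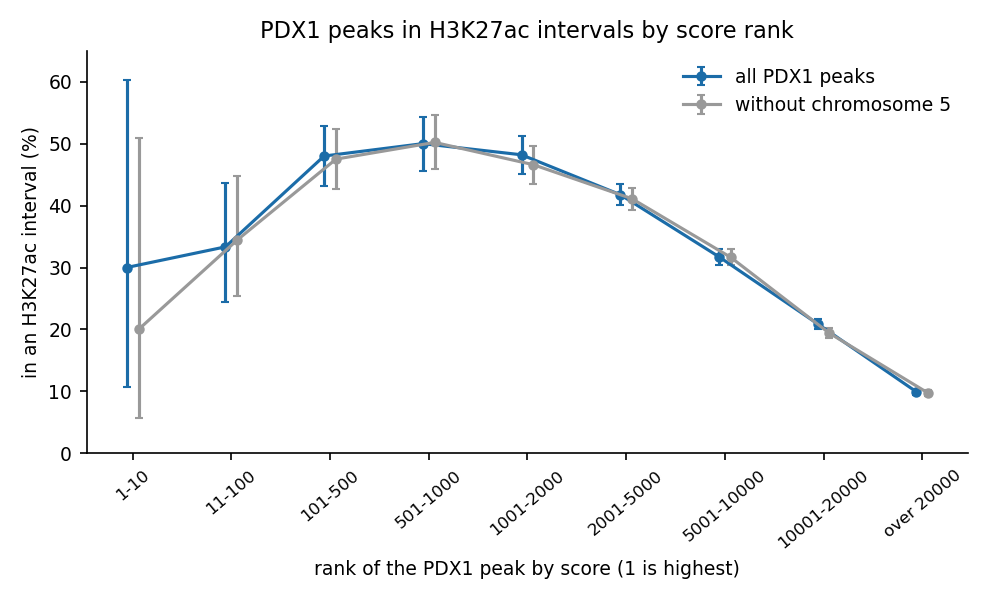
Share of PDX1 peaks in an H3K27ac interval (percent) by rank of the PDX1 score, for all peaks and without chromosome 5, with 95% counting intervals as bars. Both lines rise from the highest ranks to about 50.0% at ranks 501 to 1000 and then decline to below 10.0%.

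The 5 highest PDX1 peaks inside H3K27ac lay in intervals of modest size and near their middle. They are named by the nearest end of a protein-coding gene, which need not be the gene they act on. The peak at chr5:119062417-119062651, 297 kb from an end of Med13l, had a score of 395 and lay at 50.9% of the width of a 1898 bp interval with an H3K27ac level of 115.4. The peak of score 319 inside Ube3c lay at 40.1% of a 3022 bp interval, and that of score 290 inside Prune2 at 45.6% of a 2728 bp interval. Those nearest to Pou3f1 (263) and Etv1 (240) lay at 58.9% and 38.6% of intervals of 1811 and 1460 bp. The 5 highest outside had Gm3415 (score 761), Bicc1 (527), 1700123K08Rik (390), Gm5565 (376) and Gm4340 (369) as the genes with the nearest end. These 5 peaks lay 6.835 kb (1700123K08Rik) to 420.2 kb (Gm4340) from those gene ends and 40.9 to 79.9 kb from the nearest interval. None of these 5 touched H3K4me2, and of the 5 inside, those at Ube3c and Etv1 did not either, although the intervals that hold them did.

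A high summed PDX1 level and a high number of PDX1 peaks picked out different intervals. The 10 highest sums ran from 103.2 in the interval nearest to Adam7 to 200.3 in that nearest to Med13l, and 8 of these 10 intervals held 1 peak. Their widths were 1460 to 6493 bp. The exceptions were an interval in Lrpprc with 2 peaks and a sum of 122.7, and one 8.63 kb from an end of Fgf12 with 3. At Fgf12 (chr16:28760345-28763401) the 3 peaks had levels of 65.4, 22.0 and 31.7 within 3056 bp, and this interval was on both lists of 10.

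Of the 10 intervals with the most PDX1 peaks, ties broken by the sum, most were wide, and the levels of their peaks ranged from 7.15 to 65.4. The widest acetylated interval of the genome, 35416 bp over Pax6 (chr2:105659558-105694974), a homeodomain factor of all islet cells, held the highest number. Its 5 peaks had levels of 7.15, 10.7, 11.8, 14.3 and 8.69 at 2.52%, 9.83%, 30.5%, 45.3% and 77.3% of its width, so 4 of the 5 were below the median of 12.8 for lone peaks. The 16135 bp interval over G6pc2 held 4 peaks with levels of 15.3, 26.1, 16.9 and 9.20, the second of them in the promoter window printed above. An interval of 10320 bp in Rbm20, which encodes a splicing factor, held 4 peaks of 15.3 to 19.9. The second widest interval, 31588 bp over Abcc8, which encodes the sulfonylurea receptor of the ATP-sensitive potassium channel, held 3 peaks with levels of 41.4, 19.9 and 16.4. The others with 3 among these 10 were nearest to Elavl4 (levels of 39.3, 28.6 and 26.6), Ralgapa2, Lrmda, Tmem108 and Tle3, with sums of 94.5, 53.2, 52.1, 47.0 and 46.5. Further intervals with 3 had lower sums. At Tle3 the centre of the first peak was 44 bp outside the edge.

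Some of the largest acetylated domains had little or no PDX1. Among the 5 widest, the interval nearest to Ppara (28298 bp) held 1 weak peak of level 7.67, that of Wars (20923 bp) 1 of 10.7, and that of Ero1b (25842 bp), an oxidase of insulin folding, 2 of 22.0 and 11.8. Of the 82 intervals of 10 kb or more, 17 held no PDX1, and 14 of these were at gene ends. Their nearest PDX1 peak was 3.73 to 81.1 kb away, with a median of 15.1 kb. The highest H3K27ac levels without PDX1 were 3918.1 at Rhof, 3491.4 at Isl1, 3068.5 at Cdkn1b and 2681.3 at Nkx2-2. Isl1 and Nkx2-2 encode homeodomain factors of the islet, and the nearest PDX1 peaks to their intervals of 18974 and 17090 bp were 8.37 and 7.89 kb away. The PDX1 list starts at 13 tags and requires 4 times the input and 4 times the surrounding 10 kb. Absence here thus means that no peak was called under these thresholds at this depth.

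Lists of beta-cell genes held a higher share of members with PDX1 in acetylated intervals than protein-coding genes overall. These lists were chosen with earlier results of the same data known, so their counts are descriptions. An interval was assigned to the gene with the nearest end within 50 kb, and 2937 of 21887 protein-coding genes (13.4%) had one with PDX1. Among 20 beta-cell transcription factors 12 had one (60%, 38.7 to 78.1), and 22 of their 70 intervals (31.4%) held PDX1, beside 18.2% of the intervals over all genes. Pax6 had the highest sum of PDX1 levels in this list (93.0, 7 peaks), followed by Pdx1 itself (67.5), Rfx6 (66.9), Foxa2 (60.8) and Nkx6-1 (47.0). Pdx1 carried peaks of score 71 and 64 at 13.9% and 30.1% of a 19620 bp interval. Mafa, Insm1, Mnx1, Isl1 and Nkx2-2 had 2 to 4 acetylated intervals each and PDX1 in none of them.

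Granule genes also included members with several PDX1 peaks in H3K27ac and members with none. Of 18 genes for insulin and the secretory granule, 11 had an interval with PDX1, and 26 of their 92 intervals held it. Slc30a8, the zinc transporter of insulin granules, had the highest sum (145.1, 4 of 12 intervals). It was followed by Scg2 (125.2, 6 of 8 intervals), Iapp (121.1, 3 of 5), Chga (110.4, 2 of 6) and Cpe (96.1, 2 of 17). The 3 peaks at Iapp had scores of 92, 60 and 94. Ins2 had a lower peak of score 24, centred 140 bp from its gene end in a 7459 bp interval. The Ins1 peak, of score 67 in an interval of 5315 bp, was centred 11.7 kb from the end of the gene. The prohormone convertase genes Pcsk1 and Pcsk2 and the granin gene Chgb had acetylated intervals without PDX1.

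For glucose sensing and excitability 6 of 14 genes had PDX1 in H3K27ac, and 9 of 34 intervals. The highest sums were at Abcc8 (136.9, 3 of 7 intervals), G6pc2 (67.5), the cation channel gene Trpm5 (32.2), the glucose transporter gene Slc2a2 (31.1) and the potassium channel gene Kcnk16 (19.4). For exocytosis 7 of 14 genes had it, but 10 of 53 intervals (18.9%) was close to the share over all genes. Syt13 (75.6), Syt7 (51.6), Rph3al (22.0), Rab27a (21.0) and Cplx2 (17.9) led that list.

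Lists of other cell types differed among themselves. Of 10 alpha-, delta- and PP-cell genes 3 had PDX1 in H3K27ac (30%, 10.8 to 60.3, beside 13.4% of all genes): Sst (66.9), Gcg (24.0) and Ttr (18.4). These genes had few acetylated intervals, 10 in all, and 5 of them held PDX1, beside 18.2% of the intervals over all genes. The Sst peak, of score 133, lay in a 1756 bp interval 46.7 kb from the gene. Krt19 (14.8) was the member among 12 acinar and duct genes, with 1 of their 2 intervals. In 14 genes of other tissues there were 0, with 0 of 5 intervals. In 12 housekeeping genes there were 2 (16.7%), among them Ppia (7.67), and 2 of 12 intervals, close to the shares over all genes, while 10 of the 12 had H3K27ac at a gene end. PDX1 peaks outside H3K27ac were assigned to genes of most lists, and to all 21887 genes together they numbered 10467. There were 11 for the 14 genes of other tissues, 27 for the 20 beta-cell transcription factors and 24 for the 18 granule genes. The remaining lists had from 0 (housekeeping) to 9. Over all genes, Bace2, Gng12, Scg2, Klhl32 and Elavl4 had the most occupied intervals, 6 each. Genes with more intervals have more chances to hold PDX1, so numbers of intervals are given beside numbers of genes.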

How the data were processed

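ChIP-seq of Beta-TC6 cells had 1 library per target. The submitters' processing notes name Bowtie 1.1.1, HOMER and the mm10 build, with no HOMER version. HOMER findPeaks called each library apart, per the file headers, at a fixed 234 bp (end minus start) for PDX1 and as stitched intervals of 500 to 35416 bp for H3K27ac (median 1163 bp). PDX1 peaks needed 13 tags, 4 times the input and 4 times the surrounding 10 kb. These filters removed 17711 and 3870 of 56464 putative peaks, per the file headers. H3K27ac intervals needed 4 times the input, and the local filter removed 0 of them.

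The normalized tag count deposited for each region is a signal per 10000000 tags of its library, per the file headers. The score, the fold over input and over the surroundings (ratios), the focus ratio (a fraction) and the deposited p-value are the authors' own values for each peak. The p-values were not used. The deposited tag counts of the input were used as given.

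Coordinates were read as 1-based and closed. Peaks per Mb were set against the bases between the first and last feature of each chromosome. Gene ends and promoter windows came from NCBI RefSeq tables for GRCm38.p6. Those tables hold no exons or UTRs, and some promoters are missing. The windows of the genes named were matched by symbol, and 4 were printed. The overlap and distance steps were tested on simulated peaks and recovered every planted one. Intervals named are the 10 with the most PDX1 peaks, the 10 with the highest summed PDX1 level, the 5 widest and the 5 with the most H3K27ac and no PDX1. Some items that this rule picks are not reported here. Peaks named are the 5 highest inside and the 5 highest outside. Genes named are the 5 per list with the highest sums, with Ins1, Ins2 and the members without PDX1 named after their values were seen, as were the 5 genes with the most occupied intervals. The members, lists, classes and rules were chosen with earlier results of these data known. Alternatives changed the PDX1 score, the fold of H3K27ac, the overlap rule, merging and the chromosomes used. The software was pandas 2.3.3 with NumPy 2.4.6 and SciPy 1.17.1 on Python 3.11.15, and matplotlib 3.10.9.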

Additional observations from a re-analysis of the deposited data

How the results depend on the processing

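No paired analysis was possible because each target had 1 library and no result came from a test. Of 48 recomputed values 21 moved by less than their counting interval, 26 moved by more without changing direction and 1 changed direction. The share of PDX1 peaks in H3K27ac and the share of intervals with PDX1 have no direction, so they could not change it. Among the 21 are all 6 without chromosome 5. Others there could hardly move: chromosomes 1 to 19 and X left out 0 PDX1 peaks, and the rule by centres repeats position and distance by construction. The share of PDX1 peaks in H3K27ac (21.1%) was 32.2% at a score of 20 or more, 31.4% for peaks above the median score, 10.4% with intervals of 8 times the input or more, 19.8% by centres and 19% with distal intervals only. The share of intervals with PDX1 (23.4%) was 17.0%, 17.4%, 29.9%, 21.9% and 28.8% under the same settings, and 24.3% after merging intervals within 1 kb. The ratio of peaks per 10 kb by at least 1 bp of overlap, in intervals of 10 kb or more to those under 1 kb (0.462), was 0.656 at a score of 20 or more, 0.638 above the median score and 0.587 by centres. The standardised difference by tag density (-9.06 points) was -3.70 at a score of 20 or more, -4.00 above the median score, -13.8 with 8 times the input and 6.43 with distal intervals only, where it reversed. The central share (72.9%) was 75.6%, 75.4%, 78.0%, 71.0% and 74.3% for score, above the median score, 8 times the input, merging and distal intervals. The ratio of density within 1 kb to that beyond 100 kb (2.90) was 4.73, 4.65, 1.87 and 3.44 for score, above the median score, 8 times the input and distal intervals. Restricting to distal intervals was chosen after seeing the data. Fewer peaks or intervals enter these settings by construction; the cause was not otherwise tested. Depth and the fold filters limit the absences. Sites under 13 PDX1 tags or 11 H3K27ac tags, or removed by the filters, do not enter the lists.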

Other observations

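Distal acetylated intervals with PDX1 more often carried H3K4me2 than those without. The mark was present in 47.9% (47.1 to 48.7) of distal intervals without PDX1, 75.7% (74.5 to 76.7) with 1 peak and 91.8% (88.4 to 94.2) with 2 or more. Width moved with this, and within width classes the shares without and with PDX1 were 34.3% and 64.3% under 1 kb, 64.1% and 77.8% at 1 to 2 kb, 73.3% and 82.2% at 2 to 5 kb, and 89.9% and 93.3% at 5 to 10 kb. The difference was largest in the shortest of these 4 classes, and in the widest of them the counting intervals overlapped. At gene ends the shares for 0 and 1 peak were 87.0% and 87.8%, but within width classes they were lower with PDX1 in the classes from 1 to 10 kb. Without and with PDX1 they were 89.9% (88.8 to 91.0) and 84.3% (78.5 to 88.7) at 1 to 2 kb, 94.3% and 90.6% at 2 to 5 kb, and 97.8% and 91.8% at 5 to 10 kb. At 2 to 5 kb and at 5 to 10 kb the counting intervals overlapped. Peaks of CLOCK, a partner of BMAL1 in the circadian clock, lay in 1.40% (1.23 to 1.60) of distal intervals without PDX1, 3.90% (3.44 to 4.42) with 1 peak and 6.53% (4.39 to 9.61) with 2 or more. For BMAL1 the shares were 1.41%, 3.12% and 4.26%, and for the histone variant H2A.Z 15.6%, 17.5% and 21.3%. At gene ends the H2A.Z shares were 47.8%, 43.2% and 41.5%. The H2A.Z list was called against another input than PDX1 and H3K27ac, per the file headers, while the description of its sample names theirs. The part of width in the shares of these 3 targets was not tested.

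Autosomes differed more in PDX1 outside H3K27ac, with 4.17 to 18.0 peaks per Mb, than inside it, with 2.28 to 4.24 per Mb of chromosome. The share of PDX1 peaks in H3K27ac ran from 13.9% on chromosome 14 to 35.3% on chromosome 9. Chromosome 14 had 18.0 PDX1 peaks per Mb outside intervals and chromosome 9 had 4.17, while inside they had 2.92 and 2.28. The X chromosome had the lowest densities of both kinds, 3.67 outside and 0.960 inside. Across the 20 chromosomes Spearman's rho of the share in H3K27ac with the density outside was -0.85, a relation that is partly built in because the outside peaks are the rest of the share. Input tags per kb of H3K27ac interval had a rho of 0.60 with the density outside and 0.75 with the density inside. The part of the input level in these differences was not tested.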
